A study of Mus musculus with 6 samples.

Results

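The genes examined were 10 of the 13426 genes in a transcriptome table of early LPre-B cells (large pre-B cells at an early stage) of the mouse: 2 D-type cyclins (*Ccnd2*, *Ccnd3*), 2 E-type cyclins (*Ccne1*, *Ccne2*), 3 cyclin-dependent kinases (CDKs) of the G1 phase (*Cdk2*, *Cdk4*, *Cdk6*) and 3 CDK inhibitors (*Cdkn1b*, *Cdkn2c*, *Cdkn2d*). They were chosen by gene identity through their Entrez IDs, and all 10 had a row. The cells came from the bone marrow of Upf1-cKO mice (*Upf1* Flox/Flox, *Mb1* Cre/+) and control (Ctrl) mice (*Upf1* Flox/Flox, *Mb1* +/+), with 3 libraries per group. Both groups carried the floxed *Upf1* allele, and only the Upf1-cKO mice carried Cre, which is placed in the *Cd79a* (Mb1) locus and is active in B lineage cells. The controls therefore lacked both the recombinase and the change to *Cd79a*, and the effect of these cannot be told apart from that of *Upf1* loss. Per the study's methods, the replicates were independent biological ones, and the sort took, among other criteria, cells that were negative for lineage markers, surface IgM and CD2, positive for B220 and CD43, and large by forward scatter.

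Progression through G1 is driven by D-type cyclins, which bind CDK4 or CDK6, and then by E-type cyclins, which bind CDK2. These kinases phosphorylate RB family proteins, which releases E2F transcription factors and allows S phase genes to be expressed. INK4 inhibitors, here p18 (*Cdkn2c*) and p19 (*Cdkn2d*), bind CDK4 and CDK6, while the CIP/KIP inhibitor p27 (*Cdkn1b*) acts mainly on cyclin-CDK2 complexes. Large pre-B cells are cycling cells, and D-type cyclins, with cyclin D3 foremost, are known for their part in pre-B cell expansion. UPF1 is an RNA helicase of nonsense-mediated mRNA decay, and the comparison asks how G1 transcripts stood in cells from mice with *Upf1* deleted.

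Levels are given as normalised reads, that is reads per 1e6 of a library's effective size, and fold changes on the log2(normalised reads + 1) scale, Upf1-cKO over Ctrl. A gene was called at an adjusted p below 0.05 by limma, with Benjamini-Hochberg adjustment over all 13426 genes. Of the 10 genes, 8 were lower and 0 higher in Upf1-cKO cells, beside 25.0% of all genes called lower and 27.7% called higher. The called genes were *Ccnd3*, *Ccne1*, *Ccne2*, *Cdk2*, *Cdk4*, *Cdk6*, *Cdkn2c* and *Cdkn2d*, and *Ccnd2* and *Cdkn1b* were not called. In the same 8 genes every Upf1-cKO library was below every Ctrl library, beside 28.0% of all genes with groups apart in that direction and 30.9% in the other. The median log2 fold change of the 10 genes was −0.59, and that of all genes was 0.01. Summed over the 10 genes, the level lay between 2012 and 2297 normalised reads in the Ctrl libraries and between 1466 and 1508 in the Upf1-cKO libraries. In bulk RNA, fewer cells at a given cell cycle stage and less RNA per cell cannot be told apart. A BrdU assay in the study, which labels cells that make DNA, found more S phase cells in Upf1-cKO mice. It took CD43-positive, CD2-negative B lineage cells, with no size criterion named. The transcript levels here are not a measure of the number of cells in S phase.

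The libraries held between 9732498 and 11006834 reads, and a library had between 268 reads (*Ccne2*) and 6939 reads (*Ccnd3*) for these genes. A single row with no name in the annotations took between 13.8% and 23.8% of the reads, more on average in Ctrl libraries, so scaling to total reads moves every fold change. *Upf1* itself was not lower in the libraries labelled Upf1-cKO: it had 260, 203 and 259 normalised reads in Ctrl and 308, 283 and 299.7 in Upf1-cKO libraries (log2 fold change 0.31, SE 0.089, limma adjusted p = 0.00696). A count over the whole gene does not resolve the removed exons, so it neither checks nor contradicts the labels. Of B lineage markers, *Ebf1* was at 363 to 478 normalised reads in Ctrl and 417 to 433 in Upf1-cKO libraries, *Pax5* at 209 to 256 and 214 to 219, and *Igll1* at 285 to 324 and 288 to 315, while *Cd79a*, whose locus carries Cre, was at 213 to 234 against 71.6 to 75.2. *Cd2*, which the gate selects against, was at 1.84 to 4.09 in Ctrl and 0.379 to 0.947 in Upf1-cKO libraries.

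Genes listed as markers of other cells differed between the groups alongside the G1 genes. The 15 neutrophil and myeloid markers summed to between 72.1 and 198 normalised reads in Ctrl and between 416 and 571 in Upf1-cKO libraries, with 6 called higher, *S100a9* and *Ltf* among them, and 1 lower (*Itgam*). The other 8 were not called, among them *Ngp* (limma adjusted p = 0.0572), *Mpo*, *Csf1r*, *Ctsg*, *Prtn3* and *Ms4a3*. Ctrl library 1 held most of the Ctrl level of *S100a9* (21.9 against 2.17 and 2.93), *Ltf* and *Ngp*. Of 12 T and NK cell markers only *Lck* and *Nkg7* had rows, and they summed to between 63.7 and 92.2 in Ctrl and between 25.3 and 27.5 in Upf1-cKO libraries, nearly all of it *Lck*. The listed *Cd3d*, *Cd3e*, *Cd3g*, *Cd4*, *Cd8a*, *Cd8b1* and *Trac* had no row. The sum is therefore not a measure of T or NK cells, and which cells the *Lck* reads came from was not tested. The 5 erythroid markers with rows, of 10, summed to between 8.74 and 12.8 and between 9.23 and 11.3, with none called. The 10 markers of later B cells and plasma cells summed to between 110 and 134 in Ctrl and between 93.0 and 103 in Upf1-cKO libraries, with 2 higher and 4 lower. The sum hides *Il2ra*, at 12.4 to 14.2 in Ctrl and 1.61 to 1.76 in Upf1-cKO libraries (log2 fold change −2.42, limma adjusted p = 2.96e-09). It encodes CD25, which the study describes as high after V to DJ recombination of the heavy chain gene, so the groups also differed in a stage marker. No marker with a row was at 0 reads in all libraries of a group, and the part of these differences in the results was not tested.

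The sequences upstream of the CDK genes are shown because all 3 CDKs were called lower and each has a single window in the promoter table used here. The table, from RefSeq for GRCm38.p6, gives 250 bases before and 50 after a gene's annotated start, and it matched 8 of the 10 genes, without *Ccnd2* and *Ccne2*. Capitals mark exact matches, on either strand, to an E2F site (TTTCCCGC, TTTCGCGC, TTTGCCGC or TTTGGCGC) or an E-box (CACGTG), with no overlap between matches. The windows are written 5′ to 3′ on the strand of the gene, which is minus for *Cdk2* at chr10:128705002-128705301, plus for *Cdk4* at chr10:127063285-127063584 and plus for *Cdk6* at chr5:3343643-3343942.
Cdk2: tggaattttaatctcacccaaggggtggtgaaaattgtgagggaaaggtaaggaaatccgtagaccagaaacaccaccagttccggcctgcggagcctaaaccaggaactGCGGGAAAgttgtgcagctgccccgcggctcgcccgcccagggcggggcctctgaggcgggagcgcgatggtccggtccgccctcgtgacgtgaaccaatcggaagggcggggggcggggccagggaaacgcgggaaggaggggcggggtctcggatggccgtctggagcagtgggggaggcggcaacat
Cdk4: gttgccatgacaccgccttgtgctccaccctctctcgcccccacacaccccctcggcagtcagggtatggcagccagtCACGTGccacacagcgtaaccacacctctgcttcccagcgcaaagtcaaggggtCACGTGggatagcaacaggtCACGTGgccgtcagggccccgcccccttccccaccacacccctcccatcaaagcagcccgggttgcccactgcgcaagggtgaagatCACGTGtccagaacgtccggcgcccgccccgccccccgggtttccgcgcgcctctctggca
Cdk6: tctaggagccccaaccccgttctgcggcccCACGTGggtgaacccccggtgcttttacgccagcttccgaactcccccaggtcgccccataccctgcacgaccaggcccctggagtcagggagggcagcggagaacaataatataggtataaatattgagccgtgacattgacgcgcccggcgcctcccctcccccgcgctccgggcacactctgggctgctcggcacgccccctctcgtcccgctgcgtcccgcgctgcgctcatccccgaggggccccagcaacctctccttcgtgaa

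The *Cdk2* window held 1 E2F match, starting 140 bases before the annotated start, and no E-box. The *Cdk4* window held 4 E-boxes, starting 172, 118, 98 and 11 bases before the start, and the *Cdk6* window held 1, at 220 bases before the RefSeq start. That start lies inside the *Cdk6* locus as GENCODE gives it, and the loci printed here are GENCODE's, so for *Cdk6* the window is not the sequence before the printed locus. An E2F match was present in 2.26% and an E-box in 7.15% of all 32851 windows, and in 4.04% and 9.92% of the 12877 windows of genes in the table. Over the 8 genes with a window, 1 held an E2F match (*Cdk2*), 3 an E-box (*Cdk4*, *Cdk6*, *Cdkn2c*), 7 a GC box (GGGCGG) and 5 a CCAAT box, beside 60.8% and 37.9% of windows of genes in the table for the last pair of motifs. A FOXO site (GTAAACA) was found for *Ccnd3*, beside 2.58% of windows of genes in the table, and a STAT site (TTCNNNGAA, 6.92%) or a CHR element (TTTGAA, 12.3%) for none of the 8. *Ccnd3* and *Cdkn2c* have more than 1 window each, so they had more bases searched. These matches describe letters in a window and not binding.

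Of the D-type cyclins, *Ccnd3* was called lower and *Ccnd2* was not, and the difference between them is given with the ratios. *Ccnd3*, which encodes cyclin D3 (chromosome 17, 47505051 to 47599689, plus strand), had 716, 701 and 501 normalised reads in Ctrl libraries 1 to 3 and 378, 341 and 367 in Upf1-cKO libraries 1 to 3. Every Upf1-cKO library was below every Ctrl library, and Ctrl library 3 was the nearest to them. The group means were 639 ± 120 and 362 ± 19.3 (SD, n = 3), and the level was 43.4% lower in Upf1-cKO cells (log2 fold change −0.80, SE 0.12, limma adjusted p = 0.000143). *Ccnd3* had the widest spread of the 10 genes in the Ctrl group, with an SD of 18.8% of the mean against 5.34% in the Upf1-cKO group. Its exons share 4.11% of their bases with *Bysl* on the other strand, a ribosome assembly gene whose own level was lower by less (log2 fold change −0.33, limma adjusted p = 0.00409).

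*Ccnd2*, which encodes cyclin D2 (chromosome 6, 127125162 to 127152188, minus strand), had 438, 570 and 534 normalised reads in Ctrl and 410, 474 and 445 in Upf1-cKO libraries. The groups overlapped, since Ctrl library 1 was below 2 of the Upf1-cKO libraries. The means were 514 ± 68.4 and 443 ± 32.2 (SD, n = 3), with a log2 fold change of −0.21 (SE 0.090, 95% interval −0.40 to −0.02 before adjustment, limma adjusted p = 0.0601). Its call and direction were kept in 14 of 19 alternatives. It was called lower with the replicate block, with DESeq2, after median centring and without Ctrl library 1. The value lay between −0.32 (without Ctrl library 1) and 0.0084 (quantile normalization). Its exons share 7.87% of their bases with antisense transcripts, which counting without strand does not separate.

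**Figure D1:**
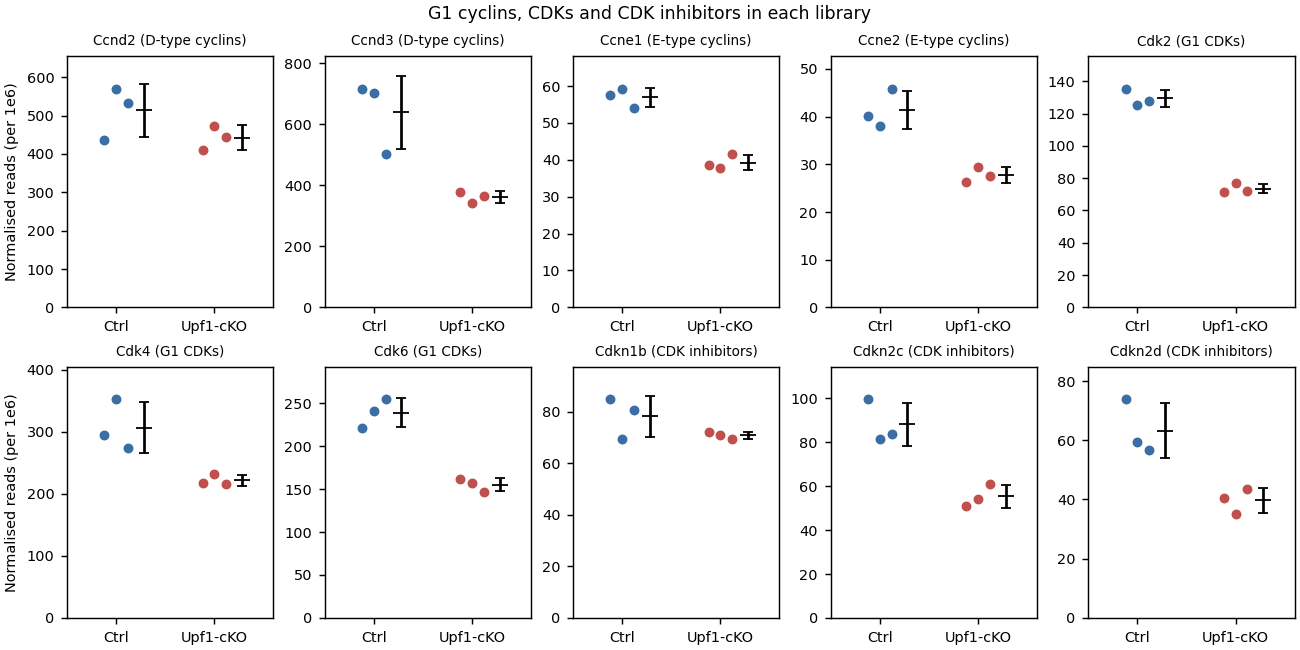
Normalised reads per 1e6 (y axis, linear from 0, own scale per panel) of each of the 10 genes in the 3 Ctrl libraries (blue) and the 3 Upf1-cKO libraries (red), with a point per library and the mean ± SD beside them. In 8 panels the red points lie below every blue point, and in the panels of *Ccnd2* and *Cdkn1b* the groups overlap.

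Both E-type cyclins, the partners of CDK2 at the G1/S boundary, were lower. *Ccne1* (cyclin E1, chromosome 7, 38097984 to 38107490, minus strand) had 57.5, 59.3 and 54.1 normalised reads in Ctrl and 38.6, 37.7 and 41.5 in Upf1-cKO libraries. *Ccne2* (cyclin E2, chromosome 4, 11190433 to 11204779, plus strand) had 40.1, 38.1 and 45.8 in Ctrl and 26.2, 29.5 and 27.6 in Upf1-cKO libraries. For both genes the groups were well separated, with no library near the other group. The log2 fold change of *Ccne1* was −0.52 (SE 0.093, limma adjusted p = 0.000112), from 56.95 ± 2.64 to 39.3 ± 1.98 (SD, n = 3). That of *Ccne2* was −0.56 (SE 0.11, limma adjusted p = 0.000258), from 41.4 ± 3.99 to 27.8 ± 1.67 (SD, n = 3). *Ccne2* is the gene with the fewest reads here, and 17.4% of its exonic bases are shared with *Ints8*, an Integrator subunit gene on the other strand that was higher in Upf1-cKO cells (78.4 ± 4.71 to 168 ± 10.3, log2 fold change 1.09, limma adjusted p = 3.47e-09).

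All 3 G1 CDKs were lower. *Cdk2*, the kinase bound by E-type cyclins (chromosome 10, 128697938 to 128705051, minus strand), had 135, 125 and 128 normalised reads in Ctrl and 71.5, 77.0 and 72.2 in Upf1-cKO libraries. The libraries of each group lay close together, with an SD of 4.07% of the mean in Ctrl and 4.04% in Upf1-cKO, and far from the other group. The level of *Cdk2* was 43.1% lower, from 129 ± 5.26 to 73.5 ± 2.97 (SD, n = 3), with a log2 fold change of −0.81 (SE 0.080, limma adjusted p = 1.26e-07).

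*Cdk4*, a partner of D-type cyclins (chromosome 10, 127063535 to 127067288, plus strand), had 294, 352 and 274 normalised reads in Ctrl and 217, 232 and 216 in Upf1-cKO libraries. The Ctrl libraries were spread more widely than the Upf1-cKO libraries, and the groups did not overlap. The means were 307 ± 40.3 and 222 ± 8.88 (SD, n = 3), with a log2 fold change of −0.46 (SE 0.086, limma adjusted p = 0.000207), the smallest in size among the called genes. Its exons share 19.7% of their bases with *Tspan31*, a tetraspanin gene on the other strand that was higher in Upf1-cKO cells (19.6 ± 1.39 to 33.1 ± 4.28, log2 fold change 0.72, limma adjusted p = 7.09e-05). *Cdk6*, the other partner of D-type cyclins (chromosome 5, 3341004 to 3531008, plus strand), had 221, 241 and 254 normalised reads in Ctrl and 161, 157 and 147 in Upf1-cKO libraries. Every Upf1-cKO library was below every Ctrl library. The means were 239 ± 16.9 and 155 ± 7.29 (SD, n = 3), with a log2 fold change of −0.62 (SE 0.078, limma adjusted p = 2.59e-06).

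Of the inhibitors, both INK4 genes were lower, like the kinases they bind, and the p27 gene was not called. *Cdkn2c*, which encodes p18 (chromosome 4, 109660876 to 109666756, minus strand), had 99.5, 81.5 and 83.7 normalised reads in Ctrl and 50.9, 54.1 and 61.1 in Upf1-cKO libraries. *Cdkn2d*, which encodes p19 of the INK4 family (chromosome 9, 21288459 to 21291421, minus strand), had 73.8, 59.3 and 56.8 in Ctrl and 40.4, 35.0 and 43.5 in Upf1-cKO libraries. In both genes Ctrl library 1 was the highest, and no Upf1-cKO library reached the Ctrl range. *Cdkn2c* went from 88.2 ± 9.82 to 55.4 ± 5.20 (SD, n = 3; log2 fold change −0.66, SE 0.098, limma adjusted p = 1.77e-05). *Cdkn2d* went from 63.3 ± 9.19 to 39.7 ± 4.31 (SD, n = 3; log2 fold change −0.66, SE 0.11, limma adjusted p = 7.29e-05).

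*Cdkn1b*, which encodes p27 (chromosome 6, 134920401 to 134925525, plus strand), had 84.8, 69.4 and 80.6 normalised reads in Ctrl and 72.2, 71.1 and 69.6 in Upf1-cKO libraries. Ctrl library 2 was below all 3 Upf1-cKO libraries, and Ctrl libraries 1 and 3 were above them. The means were 78.3 ± 7.99 and 70.9 ± 1.29 (SD, n = 3), with a log2 fold change of −0.13 (SE 0.090, limma adjusted p = 0.222). The 95% interval, −0.32 to 0.055, allows levels in Upf1-cKO cells between 79.9% and 104% of Ctrl, so a fall of the size of the INK4 genes lies outside it under this scaling. Its call and direction were kept in 16 of 19 alternatives. It was called lower after median centring and without Ctrl library 2 (−0.24 and −0.22), and was 0.066 with scaling to total reads. *Ccne1*, *Cdkn1b*, *Cdkn2c* and *Cdkn2d* share no exonic bases with another annotated gene.

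**Figure D2:**
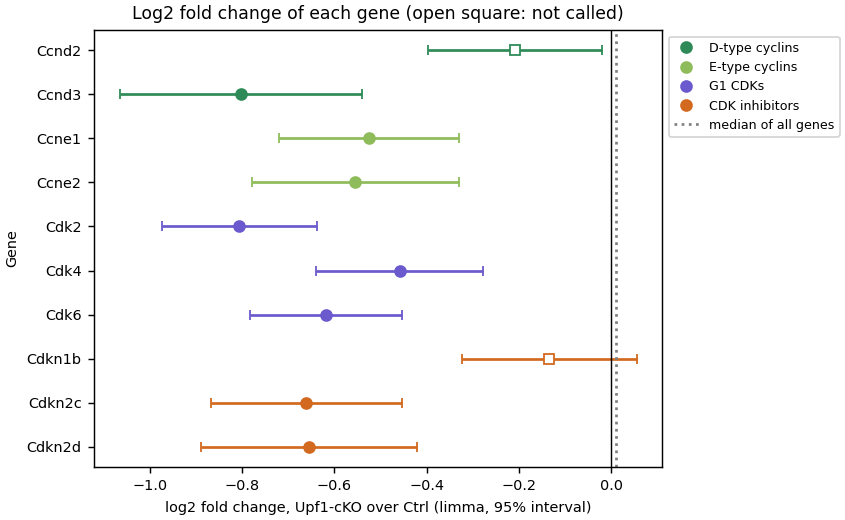
Log2 fold change (x axis, Upf1-cKO over Ctrl, on log2(normalised reads + 1)) of each of the 10 genes, with limma's unadjusted 95% interval, coloured by role, where filled circles were called and open squares were not. The 8 called genes lie between −0.81 (*Cdk2*) and −0.46 (*Cdk4*), left of *Ccnd2* at −0.21 and *Cdkn1b* at −0.13, and the dotted line marks the median of all genes at 0.01.

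All 8 called genes were lower at an adjusted p below 0.05 in each of 19 alternatives, 152 of 152 values, which covered 4 other scalings, other tests, filters and pseudocounts, and each library left out. The median of all genes moved to 0.19 with scaling to total reads and to −0.098 after median centring, and the 8 genes stayed below the median of all genes under each scaling.

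**Figure D3:**
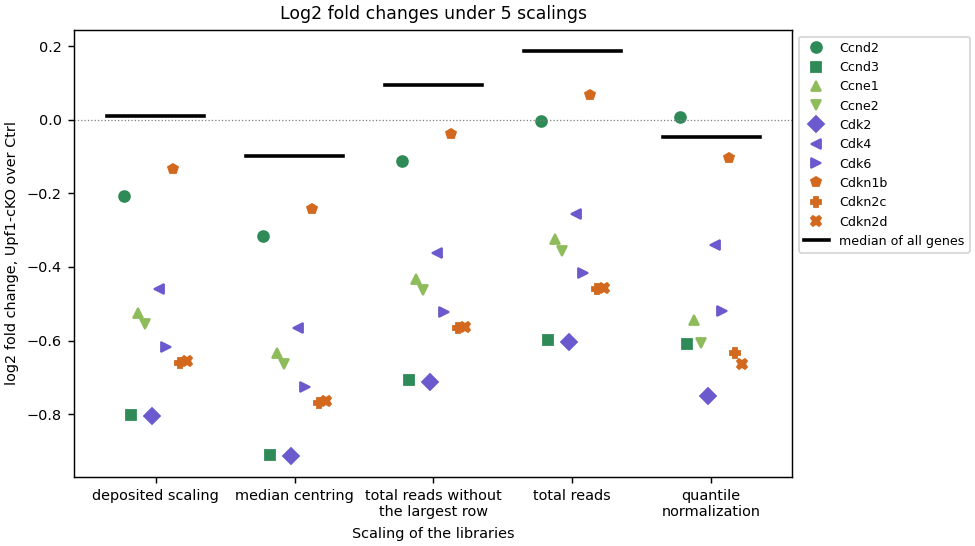
Log2 fold changes (y axis, Upf1-cKO over Ctrl) of the 10 genes under the deposited scaling and 4 others (x axis), with 1 symbol per gene and a black bar at the median of all genes. The 8 called genes are below 0 under each scaling, while *Ccnd2* is at 0.0084 under quantile normalization and *Cdkn1b* at 0.066 under total reads.

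Ratios of pairs of these genes within a library do not depend on how libraries are scaled to one another, and 8 pairs were compared. They are ratios of normalised reads with no adjustment for length, so only their change between groups is described. With 3 libraries against 3 there are 20 assignments, so the smallest p of the exact two-sided permutation test is 0.1, and no pair could pass a threshold of 0.05. The ratio of *Ccnd3* to *Ccnd2* was 1.64, 1.23 and 0.938 in Ctrl and 0.924, 0.719 and 0.824 in Upf1-cKO libraries. The groups did not overlap, but Ctrl library 3 and Upf1-cKO library 1 were close (difference of mean log2 ratios −0.60, exact permutation p = 0.1, adjusted 0.2 over the 8 pairs). Without Ctrl library 1, the highest, the difference was −0.39. The ratio of *Cdk2* to *Cdk4* was 0.460, 0.356 and 0.465 in Ctrl and 0.329, 0.332 and 0.334 in Upf1-cKO libraries (−0.35, exact permutation p = 0.1, adjusted 0.2), also without overlap.

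Both ratios with the p27 gene as numerator were higher in every Upf1-cKO library than in every Ctrl library. The ratio of *Cdkn1b* to *Cdkn2c* was 0.853, 0.851 and 0.963 in Ctrl and 1.42, 1.31 and 1.14 in Upf1-cKO libraries (difference of mean log2 ratios 0.53, exact permutation p = 0.1, adjusted 0.2). The lowest Upf1-cKO ratio, in library 3, was above the highest Ctrl ratio, also in library 3. The ratio of *Cdkn1b* to *Ccnd3* was 0.118, 0.0989 and 0.161 in Ctrl and 0.191, 0.209 and 0.190 in Upf1-cKO libraries (0.67, exact permutation p = 0.1, adjusted 0.2), without overlap.

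In the other 4 pairs the groups overlapped. The difference of mean log2 ratios was −0.035 for *Ccne2* to *Ccne1* (exact permutation p = 0.8), −0.16 for *Cdk6* to *Cdk4* (exact permutation p = 0.2), 0.0010 for *Cdkn2d* to *Cdkn2c* (exact permutation p = 1) and −0.049 for *Cdkn2c* to *Cdk6* (exact permutation p = 0.7). Leaving out each library in turn, the differences ranged from −0.12 to 0.078, from −0.26 to −0.038, from −0.075 to 0.074 and from −0.16 to 0.096 in the same order. The log2 ratios in the Ctrl libraries had an SD between 0.068 and 0.25 in these pairs.

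**Figure D4:**
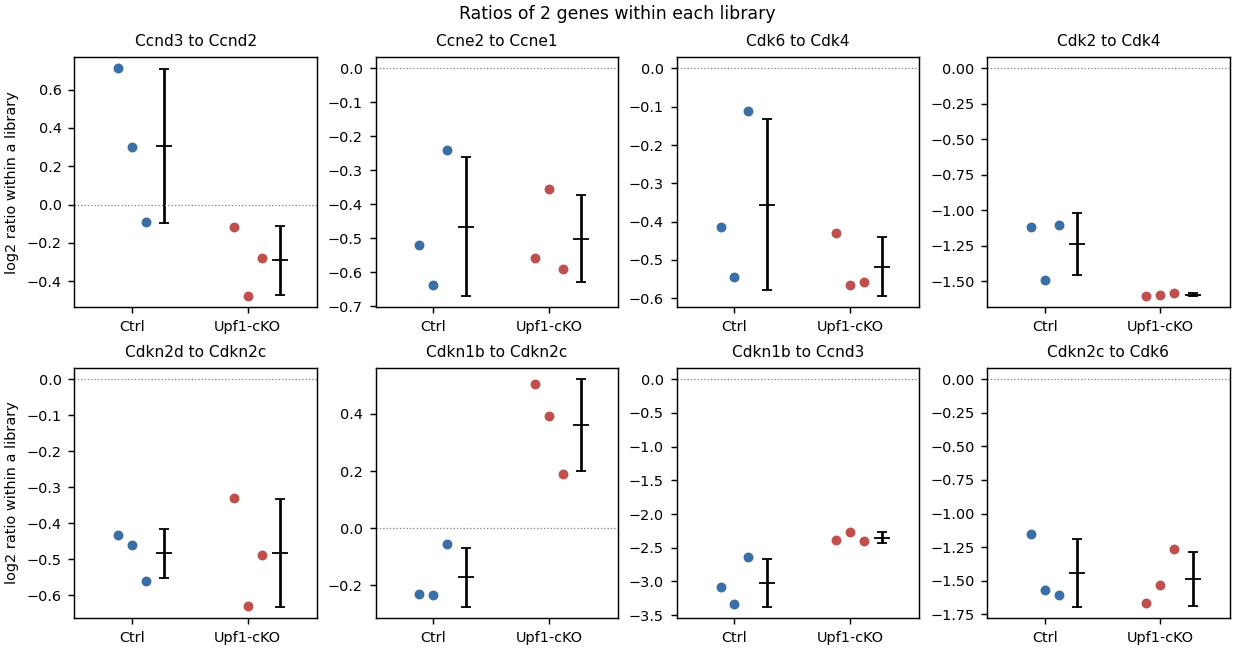
Log2 ratio of 2 genes within each library (y axis, own scale per panel, dotted line at equal normalised reads) for the 8 pairs in Ctrl (blue) and Upf1-cKO (red) libraries, with the mean ± SD beside the points. The groups are apart for *Ccnd3* to *Ccnd2*, *Cdk2* to *Cdk4*, *Cdkn1b* to *Cdkn2c* and *Cdkn1b* to *Ccnd3*, and overlap in the other 4 pairs.

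Levels were compared between genes as normalised reads per kb of exon, with the exon length of each gene taken over all its transcripts in GENCODE release M21. In Ctrl cells the order was *Cdk4* (94.4 ± 12.4 per kb, SD, n = 3), *Ccnd3* (72.9 ± 13.7), *Ccnd2* (54.6 ± 7.27), *Cdkn2d* (40.2 ± 5.84), *Cdkn2c* (32.8 ± 3.66), *Ccne1* (21.4 ± 0.992), *Cdk2* (20.8 ± 0.846), *Cdkn1b* (17.2 ± 1.76), *Cdk6* (17.1 ± 1.21) and *Ccne2* (11.8 ± 1.14). Neighbours whose libraries overlapped were *Ccnd3* and *Ccnd2*, *Ccnd2* and *Cdkn2d*, *Cdkn2d* and *Cdkn2c*, *Ccne1* and *Cdk2*, and *Cdkn1b* and *Cdk6*. In Upf1-cKO cells *Cdk4* was again at the top with 68.3 ± 2.73 per kb and *Ccne2* at the bottom with 7.95 ± 0.478. In between, *Ccnd2* (47.1 ± 3.42) came before *Ccnd3* (41.2 ± 2.20), and *Cdkn1b* (15.6 ± 0.284) stood in sixth place, ahead of *Ccne1* (14.8 ± 0.745), *Cdk2* (11.8 ± 0.478) and *Cdk6* (11.1 ± 0.521). The libraries of *Cdkn1b* and *Ccne1*, of *Cdk2* and *Cdk6* and of *Cdkn2d* and *Cdkn2c* overlapped there, so their order is not resolved. A gene expressed as a short transcript of a long annotated union, as for *Cdk6* with 14.0 kb of exon, is understated on this scale.

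Of the other cyclins, CDKs and inhibitors of the same families, 7 of 8 listed genes had a row, and 2 were higher and 3 lower, with a median log2 fold change of 0.21. *Cdkn1a*, which encodes the CIP/KIP inhibitor p21, had 28.7, 24.9 and 21.5 normalised reads in Ctrl and 64.1, 64.2 and 65.1 in Upf1-cKO libraries. All Upf1-cKO libraries were high and almost equal, at a log2 fold change of 1.34 (SE 0.11, limma adjusted p = 8.86e-09). *Ccnd1* (cyclin D1) was low throughout, with 25 to 69 reads per library, and higher in Upf1-cKO cells at 5.48 ± 1.19 against 3.41 ± 0.62 normalised reads (SD, n = 3; log2 fold change 0.55, limma adjusted p = 0.0313), a call lost in 6 alternatives. *Ccna2* (cyclin A2) and *Cdk1*, which act after G1, were lower with log2 fold changes of −0.68 (SE 0.070) and −0.49 (SE 0.082). *Cdkn2a*, at 3 to 16 reads per library and with overlapping groups, was also called lower (log2 fold change −0.64, limma adjusted p = 0.0340). That call was lost with DESeq2 (adjusted p = 0.0817), with scaling to total reads (limma adjusted p = 0.0646), and without Ctrl library 1 or 2 or Upf1-cKO library 2 or 3 (limma adjusted p from 0.0971 to 0.128). *Cdkn1c* and *Cdkn2b*, at under 25 reads in every library, were not called.

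Genes that activate or assemble CDK complexes had 9 of 13 members lower and 2 higher, with a median log2 fold change of −0.36. Phosphatases and kinases acting on CDKs were among the lower ones: *Cdc25b*, which removes inhibitory phosphates, went from 371 ± 38.9 to 143 ± 9.74 normalised reads (SD, n = 3; log2 fold change −1.37), and the inhibitory kinase genes *Wee1* and *Pkmyt1* had log2 fold changes of −0.69 (SE 0.076) and −0.77 (SE 0.12). *Cks2*, a small CDK-binding subunit, had −0.86 (SE 0.14). The 2 higher genes, named after their values were seen, were *Mnat1*, an assembly factor of the CDK-activating kinase (0.47, SE 0.11), and *Cdc25c* (0.26, SE 0.11, limma adjusted p = 0.0448). That count fell to 1 in 8 alternatives, among them the replicate block, limma without trend, DESeq2 and leaving out Ctrl library 2 or Upf1-cKO library 2 or 3.

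Genes for the turnover of G1 cyclins and p27 had 11 of 20 members lower and 2 higher (median −0.22). *Btrc*, an F-box subunit of an SCF ubiquitin ligase, went from 176 ± 4.91 to 48.9 ± 3.83 normalised reads (SD, n = 3; log2 fold change −1.83, SE 0.084). *Skp2*, the F-box protein that targets p27, went from 103 ± 1.66 to 76.4 ± 5.90 (−0.43, SE 0.084). *Gsk3a*, whose kinase family phosphorylates D-type cyclins, had −0.65 (SE 0.090) and the cullin gene *Cul4b* −0.60 (SE 0.080). The 2 higher genes, again named after their values were seen, were *Fbxo31*, an F-box gene, and the deubiquitinase gene *Usp28*, both with a log2 fold change of 0.30 (SE 0.11). That count fell to 0 or 1 in 8 alternatives, among them DESeq2 (0), limma without trend (1) and leaving out Ctrl library 2 or 3 (1) or Upf1-cKO library 1 or 3 (0), and the 11 lower genes became 4 with scaling to total reads.

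Downstream of the G1 kinases, the RB and E2F family had 12 of 19 members lower and 2 higher (median −0.47). *E2f1* went from 82.1 ± 7.26 to 33.9 ± 1.84 normalised reads (SD, n = 3; log2 fold change −1.25), *E2f2* from 559 ± 86.0 to 328 ± 12.6 (−0.76) and *Rb1* from 112 ± 17.4 to 65.0 ± 7.86 (−0.77). The activators *E2f1* and *E2f2* and the pocket protein gene *Rb1* that restrains them were thus all lower. *E2f6*, which encodes a repressor without an RB-binding domain, was higher at 42.2 ± 1.44 against 25.1 ± 5.94 (0.75), and *E2f5*, named after its value was seen, was the other higher member (0.49). That count fell to 1 under quantile normalization and without Upf1-cKO library 1.

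Genes of S phase entry had 20 of 24 members lower and 1 higher, with a median of −0.73. *Mcm4*, a subunit of the replicative helicase, went from 351 ± 12.2 to 159 ± 9.61 normalised reads (SD, n = 3; log2 fold change −1.14, SE 0.074), and the licensing factor gene *Cdt1* had −1.08 (SE 0.090). *Slbp*, which binds histone mRNA, and *Rrm2*, a ribonucleotide reductase subunit, had −1.08 (SE 0.088) and −1.07 (SE 0.075). The single higher gene, named after its value was seen, was *Tyms*, thymidylate synthase, at 114 ± 13.1 against 201 ± 13.4 (0.81, SE 0.089). G2 and mitosis genes had 14 of 18 members lower and 2 higher, with a smaller median of −0.36 and examples in *Ccnb2* (−0.95), *Ccnb1* (−0.53), *Kif20a* (−0.52) and *Mki67* (−0.51). The 2 higher genes, *Bub1* and *Cenpf*, were named after their values were seen, and that count fell to 0 or 1 in 10 of 19 alternatives. With scaling to total reads only 6 of the 18 were lower. All these counts stand beside the 25.0% and 27.7% of all genes called lower and higher, and the lists were not tested against other genes.

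**Figure D5:**
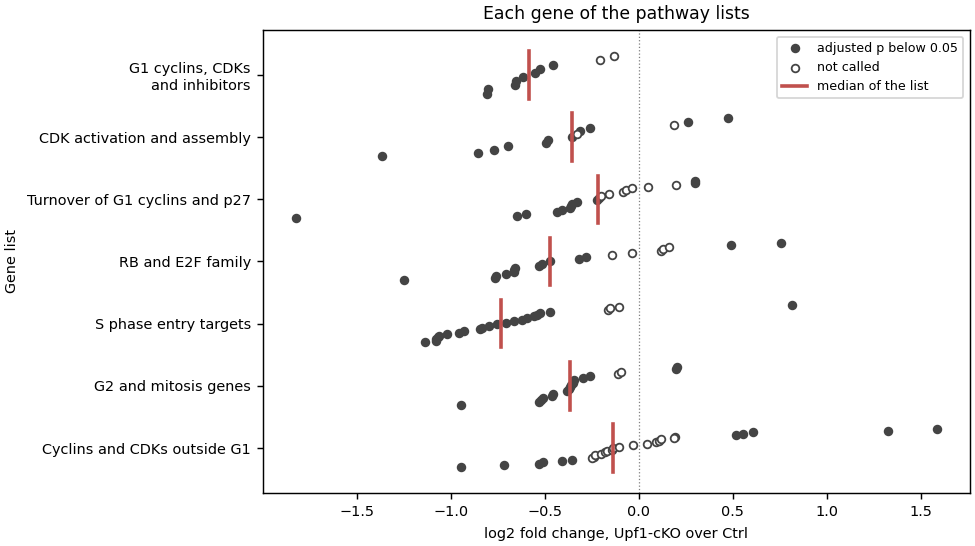
Log2 fold change (x axis, Upf1-cKO over Ctrl) of each gene in 7 lists (y axis), where filled points were called at an adjusted p below 0.05, open points were not, and a red bar marks the list's median. The medians run from −0.14 for cyclins and CDKs outside G1 to −0.73 for genes of S phase entry, and the 10 G1 genes are at −0.59. The list of other cyclins, CDKs and inhibitors of the same families, with a median of 0.21, is not shown.

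For each of the 10 genes, the gene with the most similar profile over the 6 libraries was found among the 5525 genes with a mean of at least 5 on the log2(normalised reads + 1) scale, by Pearson's r. With 6 points in 2 groups, r mostly reflects the group difference and is given as a description. The D-type cyclins were most like *Eif3f* for *Ccnd3* (r = 0.997) and *Taf11* for *Ccnd2* (r = 0.986), and the E-type cyclins most like *Smu1* for *Ccne1* (r = 0.999) and *H1f1* for *Ccne2* (r = 0.997). The kinases were most like *Skil* for *Cdk2* (r = 0.999), *Babam2* for *Cdk4* (r = 0.995) and *Rps6* for *Cdk6* (r = 0.997). The inhibitors were most like *Chtf18* for *Cdkn2c* (r = 0.998), *Lbr* for *Cdkn2d* (r = 0.998) and *Apc* for *Cdkn1b* (r = 0.993). No gene of the 10 was another's closest match.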

How the data were processed

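RNA of sorted early LPre-B cells was sequenced from 3 Ctrl and 3 Upf1-cKO libraries. As the study describes, rRNA was removed and single-end reads from a directional kit were aligned to mm10 with HISAT2 without strand. The submitters' processing notes name cutadapt 4.0, featureCounts 2.0.1 and limma 3.48.0. The authors deposited 1 table of linear signal per gene and library. Its form was worked out from the values: each is a number of reads plus 0.5, per 1e6 of an effective library size, and whole reads were recovered for 100% of values (tolerance 0.05). Fold changes on log2(value + 1) understate those of low genes.

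Entrez IDs were named from RefSeq GRCm38.p6 (13008 of 13426), with 3 more from GENCODE M21 and 415 left unnamed. limma 3.58.1 in R 4.3.3 (trend and robust eBayes, group as the only term) was run over all 13426 genes with Benjamini-Hochberg adjustment, and intervals are limma's. On simulated data it called 95.0% of genes changed by 1 and 100% of those changed by 2 on the log2 scale, and 0.0907% of unchanged genes. The simulation changed 100 genes of each size, equally up and down and above a minimum of reads, at 1 fixed dispersion. The data had far more genes called and an uneven spread between libraries, so these rates need not hold for them. Alternatives were a replicate block, eBayes without trend, voom, edgeR 4.0.16 and DESeq2 1.42.0 on recovered reads, median centring, total reads, quantile normalization, minimum means of 1 and 3, pseudocounts of 0.1 and 0, and each library left out. Scaling to total reads without the largest row was added after seeing the data. Samples were grouped by their labels, which give no batch. Chi-square per degree of freedom between libraries of a group was 4.39 to 22.02, above sampling noise, so none was counted as the same library deposited again, and p-values cover the spread between 3 libraries.

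The genes, lists and ratio pairs were chosen with earlier results of these data known. Named genes were the 10 members, *Upf1*, up to 4 genes per list with the largest called change and no overlap between groups, and the most similar gene to each member. Marker genes are named to describe the cells, *Bysl*, *Ints8* and *Tspan31* because their exons overlap a member's, and *Cdkn1c*, *Cdkn2a* and *Cdkn2b* to account for a short list, chosen after their values were seen.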

Additional observations from a re-analysis of the deposited data

How the results depend on the processing

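All 8 called genes kept their call and direction in the 19 alternatives. *Ccnd2* became called (lower) with the replicate block (−0.21, adjusted p = 0.0369), with DESeq2 (−0.23, adjusted p = 0.0422), after median centring (−0.32, adjusted p = 0.00768) and without Ctrl replicate 1 (−0.32, adjusted p = 0.000944), and turned to 0.0084 under quantile normalization (adjusted p = 0.941). Leaving out each library moved it between −0.32 and −0.13. *Cdkn1b* became called after median centring (−0.24, adjusted p = 0.0295) and without Ctrl replicate 2 (−0.22, adjusted p = 0.0468), moved between −0.22 and −0.075 when libraries were left out, and turned to 0.066 with scaling to total reads (adjusted p = 0.600). The cause was not tested. Adjusted p-values are limma's unless another tool is named.

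Whether same-numbered libraries were paired is not stated. In the sample descriptions, the Ctrl and Upf1-cKO libraries of each replicate number carry adjacent running numbers, whose meaning is not given. Deviations of same-numbered libraries correlated at 0.0821, −0.0298 and −0.0208, and not every library correlated best with its own number. With 3 libraries per group these correlations cannot decide whether the samples were paired. With the replicate block 9 of the 10 genes were called lower, and over all genes 3321 were lower and 3668 higher, beside 3351 and 3725 without it. Over all genes, scaling to total reads called 1936 lower and 5172 higher (median 0.19), scaling to total reads without the largest row 2662 lower and 4384 higher (median 0.096), and median centring 4355 lower and 2992 higher (median −0.098). Of the ratios, *Ccne2* to *Ccne1* (−0.12 to 0.078), *Cdkn2d* to *Cdkn2c* (−0.075 to 0.074) and *Cdkn2c* to *Cdk6* (−0.16 to 0.096) changed sign when a library was left out. *Ccnd1* was not called with DESeq2 (0.67), median centring (0.44), quantile normalization (0.36) or without Ctrl library 1 (0.43) or Upf1-cKO library 1 (0.41) or 3 (0.57), and *Mki67* was not called under quantile normalization (−0.18). *Ccne2*, with 268 to 461 reads a library, had the fewest reads of the 10 genes.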

Other observations

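Of 28 listed cyclins and CDKs that act outside G1, 27 had a row, and 7 were lower and 6 higher in Upf1-cKO cells, with a median log2 fold change of −0.14. These shares are near those of all genes, 25.0% lower and 27.7% higher. The 7 became 12 after median centring, and the 6 became 10 with scaling to total reads. The largest rises were in *Cdk20*, from 1.68 ± 0.249 to 7.06 ± 0.476 normalised reads (SD, n = 3; log2 fold change 1.59), and *Ccnl1*, which encodes a cyclin linked to RNA splicing, from 72.3 ± 3.92 to 183 ± 9.96 (1.33). The largest falls were in the mitotic cyclin gene *Ccnb2*, from 174 ± 9.84 to 89.9 ± 0.86 (−0.95), and in *Ccni*, from 271 ± 13.6 to 164 ± 7.34 (−0.72).

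Of 27 genes for signalling and transcription factors that act on pre-B cell proliferation, 12 were lower and 8 higher (median −0.12), beside the same 25.0% and 27.7% of all genes, and the 8 fell to 5 with limma without trend and after median centring. *Ikzf3*, an Ikaros family factor, went from 318 ± 19.3 to 34.4 ± 2.91 normalised reads (SD, n = 3; log2 fold change −3.17), and *Irf4* from 466 ± 9.32 to 121 ± 9.18 (−1.94). *Bach2*, a repressor, went from 878 ± 97.1 to 296 ± 13.7 (−1.56), and *Bcl6*, at low levels, from 8.77 ± 2.10 to 2.64 ± 2.08 (−1.55). *Il7r*, the interleukin 7 receptor alpha chain, was lower (342 ± 37.4 to 224 ± 7.96, −0.61) and *Stat5b*, which acts below that receptor, was higher (83.4 ± 8.26 to 132 ± 2.70, 0.66). *Myc* was at 140 ± 19.0 and 153 ± 24.3 (log2 fold change 0.12, limma adjusted p = 0.402), and the groups overlapped. *Il7r*, *Stat5b* and *Myc* were named after their values were seen.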
